A study of Mus musculus with 12 samples.

Results

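The integrated stress response is the program by which mammalian cells lower general protein synthesis and raise the transcription factor ATF4. Its regulators were described here through 10 genes, Atf4, Ddit3, Atf3, Atf5, Cebpb, Chac1, Trib3, Sesn2, Ddit4 and Ppp1r15a, out of the 21671 lines of the RNA sequencing (RNA-seq) table of 3T9 fibroblasts. Each gene was found by its symbol, 1 line a gene, and all 10 were among the 12259 genes tested. The genes were selected on their measured fold changes against mock, because the earlier results of OHT, dox and OHT+dox against mock were known when the list was drawn up. Those 3 comparisons are therefore given below as a description of these genes. The number of them past the threshold is printed beside the share of all genes, and nothing is read from it. Comparisons between treated groups are differences of the same fold changes. Their p-values and ranks for these genes are therefore a description too.

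The 12 libraries came from 3T9 MycER;YAP cells, immortalized mouse embryonic fibroblasts that were starved of serum at high confluence. All of them, the mock libraries included, carry MycER, a Myc protein fused to a hormone-binding domain that 4-hydroxytamoxifen (OHT) switches on, and a doxycycline (dox)-inducible vector for YAP S127A, a YAP mutant that the Hippo pathway kinases cannot retain in the cytoplasm through that serine. The groups were 400 nM OHT, 2 µg/mL dox, OHT+dox, and mock, with 3 libraries in each. The comparison of OHT+dox with either agent alone asked what YAP adds to Myc, and what Myc adds to YAP, in these starved and confluent cultures. Dox also blocks translation in mitochondria, and dox on cells without the YAP vector was not analysed here. YAP S127A and dox itself therefore cannot be told apart in any comparison that adds dox. OHT on cells without MycER was not analysed either, so active MycER and OHT itself cannot be told apart where OHT is added.

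In the integrated stress response, kinases that sense unfolded proteins, amino acid shortage, double-stranded RNA or heme shortage phosphorylate the translation initiation factor eIF2. This slows most translation but favours that of Atf4 mRNA, so ATF4 protein can change while its mRNA does not. ATF4 pairs with C/EBP proteins and binds C/EBP-ATF response elements (CAREs), which raises genes of amino acid synthesis and uptake, tRNA charging, redox balance and, through its target CHOP, cell death. In fibroblasts the response is known as the route by which amino acid supply and protein folding are matched to the rate of growth.

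The promoters were searched for 4 short motifs known as sites of transcription factors, and stretches that hold one are shown. Binding of a factor to them was not tested. RefSeq promoters of build GRCm38.p6, from 250 bases before to 50 after each start, were at hand for all 10 genes, with 11 entries in all. The motifs, searched on both strands, were the CARE core TGATGNAA, the ATF/CREB site TGACGTCA, the E-box CACGTG that Myc binds, and the TEAD site GGAATG through which YAP acts. Capitals mark the match, and for the CARE core they show its reverse complement.
Chac1 (chr2:119351033-119351072, plus strand): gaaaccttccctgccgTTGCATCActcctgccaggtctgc
Atf3 (chr1:191183420-191183459, minus strand): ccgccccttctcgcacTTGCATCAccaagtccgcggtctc
Trib3 (chr2:152344031-152344054, minus strand): gctcaggtTTACATCAgccgggcg
Ppp1r15a (chr7:45526265-45526288, minus strand): ctctccggTGACGTCAgcacagcg

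The CARE core lay 193 bases before the start of Chac1, 110 bases before that of Atf3 and at base 15 of the Trib3 transcript. It was in 3 of the 11 entries and in 3.97% of 32851 promoters of the same length. The ATF/CREB site, 12 bases before the start of Ppp1r15a, was in 1 entry and in 1.79% of promoters. The E-box and the TEAD site were in 0 of the 11 entries, against 7.15% and 14.7% of all promoters. A match is only a description of the letters in this window.

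Values are group means of normalized counts, that is, read counts divided by a factor for the depth of each library, with their standard errors (SE). They were rebuilt from the authors' comparisons with mock, since no value per library was used, and the SE joins counting error with 1 dispersion per gene shared by all groups. The total reads per library are therefore unknown, and the depth factors, read from genes with a single read, ranged from 0.814 to 1.13. For the 10 genes, the mock mean came out within 0.129% between the 3 comparisons that contain it. The rebuild aligned these means and took the values that brought them closest together, so the agreement is partly built in. The recovered dispersion stood for a standard deviation beyond counting error of 6.84% of the mean for Atf4 to 17.9% for Trib3. It is a value of the model and not a spread measured between libraries. The sources do not say whether the libraries of a group are separate cultures. The p-values and errors cover only the spread between libraries as this model gives it. Fold changes are given as log2 fold change ± SE, and "passed" means an adjusted p under 0.05 in a two-sided Wald test with Benjamini-Hochberg adjustment over the 12259 genes. In bulk RNA, fewer cells of a type and less RNA per cell cannot be told apart.

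The labels were checked on 4 genes known to answer to YAP and 4 known to answer to Myc. Ctgf, the connective tissue growth factor gene that YAP activates, averaged 2395 in dox cells and 1534 in mock cells. Ncl, the Myc target nucleolin, averaged 3082 in OHT cells and 1610 in mock cells. Of the YAP genes Ctgf, Cyr61 and Ankrd1 passed with dox, while Amotl2 did not (log2 fold change 0.22 ± 0.08, adjusted p = 0.0562, Wald test). With OHT+dox only Ctgf of these passed (0.44 ± 0.09). Cyr61, Ankrd1 and Amotl2 were then at 0.17 ± 0.09, 0.25 ± 0.38 and 0.18 ± 0.08. With OHT alone Ctgf (−0.32 ± 0.09) and Ankrd1 (−1.31 ± 0.43) passed below mock, while Cyr61 and Amotl2 did not pass. Of the Myc genes Ncl, Cad and Nop56 passed with OHT, while Odc1 did not (0.04 ± 0.08, adjusted p = 0.776). All 4 Myc genes also passed with dox alone, at 0.45 ± 0.10 for Ncl, 0.37 ± 0.08 for Odc1, 0.36 ± 0.10 for Cad and 0.50 ± 0.09 for Nop56. Of 9 fibroblast markers 8 were tested, and the collagen gene Col1a2 had the highest mean at 6005. Thy1, the other fibroblast marker, had a mean of 0.445. The markers of epithelium, endothelium and muscle had means of at most 2.98, and of 5 macrophage markers only Cd68 was tested, with group means of 36.3 to 43.9, while Ptprc had a mean of 0.50. The mean normalized counts of the fibroblast markers summed to 29676 to 31494 in the 3 comparisons with mock.

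Atf4, the central transcription factor of the response, averaged 1432 ± 60.6 in OHT cells, 1637 ± 68.7 in dox cells, 1691 ± 70.9 in OHT+dox cells and 1407 ± 59.6 in mock cells (SE, n = 3 libraries). The group means with dox were both above those without it, and the highest was 1.20 times the lowest. Its log2 fold changes against mock were 0.03 ± 0.09 with OHT, 0.22 ± 0.09 with dox and 0.26 ± 0.09 with OHT+dox. OHT+dox against OHT gave 0.24 ± 0.09, which missed the threshold (adjusted p = 0.0821, Wald test).

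Ddit3 encodes CHOP, the factor that ATF4 induces and that is tied to cell death when stress lasts. It averaged 354 ± 20.2 in OHT cells, 377 ± 21.3 in dox cells, 339 ± 19.4 in OHT+dox cells and 411 ± 23.0 in mock cells. All treated groups were below mock, and each neighbour in the order overlapped the next within its SE. The log2 fold changes against mock were −0.21 ± 0.12 with OHT, −0.13 ± 0.11 with dox and −0.28 ± 0.12 with OHT+dox. Ddit3 overlaps 68 bases of an exon of Mars, the methionyl-tRNA synthetase gene, on the opposite strand, and the libraries do not keep the strand, so reads there cannot be told apart. Mars averaged 1220 in OHT+dox cells and 801.7 in mock cells, and its part in the value of Ddit3 was not tested.

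Atf3, a stress-induced repressor of the same protein family, averaged 57.4 ± 7.19 in OHT cells, 66.8 ± 8.15 in dox cells, 39.7 ± 5.37 in OHT+dox cells and 106 ± 12.1 in mock cells. Here mock stood above every treated group and OHT+dox below both single treatments. Its log2 fold changes against mock were −0.88 ± 0.24, −0.66 ± 0.24 and −1.42 ± 0.26 with OHT, dox and both. The mean in OHT+dox cells was lower than in dox cells by a log2 fold change of −0.75 ± 0.26, which passed (adjusted p = 0.0240, Wald test). Against OHT cells the value was −0.53 ± 0.27, which did not (adjusted p = 0.292).

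Atf5, whose mRNA is also translated preferentially when eIF2 is phosphorylated and which is known as a regulator of mitochondrial stress, averaged 397 ± 25.03 in OHT cells, 434 ± 27.1 in dox cells, 537 ± 33.0 in OHT+dox cells and 323 ± 20.9 in mock cells. As for Atf4, every treated group lay above mock and OHT+dox was highest, here at a larger size. The log2 fold changes against mock were 0.30 ± 0.13, 0.43 ± 0.13 and 0.74 ± 0.13. OHT+dox cells were higher than OHT cells by 0.44 ± 0.13 (adjusted p = 0.0170, Wald test), and the difference from dox cells was 0.31 ± 0.13 (adjusted p = 0.0632). Exons of Atf5 share 82 bases with Nup62 and with Il4i1 on the opposite strand. Nup62, a nucleoporin gene, averaged 832.8 in OHT+dox cells and 568.5 in mock cells, and its part in the value of Atf5 was not tested.

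Cebpb, a C/EBP factor that partners with ATF4 on CAREs, averaged 247 ± 16.2 in OHT cells, 309 ± 19.6 in dox cells, 257 ± 16.8 in OHT+dox cells and 303 ± 19.3 in mock cells. By their means both OHT groups lay below both groups without OHT, but none of the comparisons of Cebpb passed. Its log2 fold changes against mock were −0.30 ± 0.13, 0.03 ± 0.13 and −0.24 ± 0.13, and OHT+dox against dox was −0.26 ± 0.13 (adjusted p = 0.144, Wald test). Cebpb shares 312 bases of exon with Tmem189 on the opposite strand, which averaged 302.6 in OHT+dox cells and 273.3 in mock cells.

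**Figure D1:**
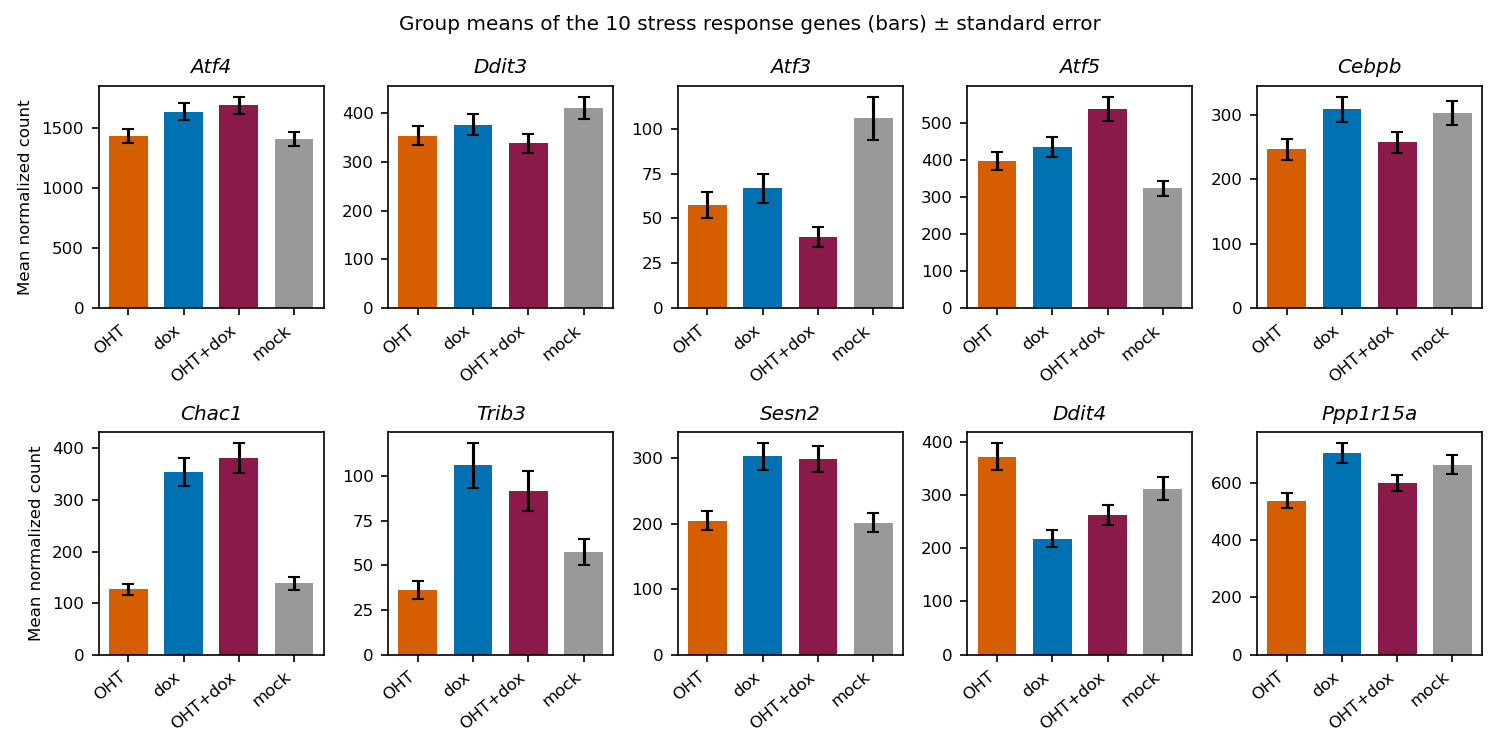
Group means of normalized counts (y axis, from 0) of the 10 genes in OHT, dox, OHT+dox and mock cells, with bars for means over 3 libraries and error bars for the SE. Chac1 stands at 381 in OHT+dox cells, 354 in dox cells, 126.7 in OHT cells and 138 in mock cells, while Atf3 is highest in mock cells at 106.

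Chac1 encodes an enzyme that degrades glutathione, the main thiol of the cell, and is a direct target of ATF4. It averaged 126.7 ± 11.1 in OHT cells, 354 ± 27.3 in dox cells, 381 ± 29.2 in OHT+dox cells and 138 ± 11.9 in mock cells. The groups formed 2 pairs, with dox and without it, and within each pair the means overlapped within their SE. Set against mock, OHT gave a log2 fold change of −0.13 ± 0.18, dox 1.36 ± 0.17 and OHT+dox 1.46 ± 0.17. OHT+dox cells had 3.01 times the mean of OHT cells, a log2 fold change of 1.59 ± 0.17 (adjusted p = 6.5e-18, Wald test), the 9th highest of the 12259 genes in that comparison. The rank and the p-value are a description, since Chac1 was chosen on the fold changes that make up this value. Against dox cells the log2 fold change was 0.11 ± 0.16, with a 95% interval of −0.20 to 0.41.

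Trib3 encodes a pseudokinase that is induced by ATF4 and CHOP and restrains both. It averaged 36.3 ± 5.11 in OHT cells, 106 ± 12.5 in dox cells, 91.5 ± 10.96 in OHT+dox cells and 57.4 ± 7.37 in mock cells. The groups with dox were again the high ones, but here OHT cells lay below mock. The log2 fold changes against mock were −0.66 ± 0.28, 0.88 ± 0.25 and 0.67 ± 0.25 with OHT, dox and both. OHT+dox against OHT was 1.34 ± 0.27 (adjusted p = 7.66e-05, Wald test), the 15th highest of all genes tested, and OHT+dox against dox was −0.21 ± 0.24 (adjusted p = 0.605). As for Chac1, this rank is a description.

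Sesn2 and Ddit4 both encode brakes of the growth kinase mTORC1, and they lay on opposite sides of mock with dox. Sesn2, a sestrin that holds mTORC1 back when leucine is short, averaged 204 ± 14.5 in OHT cells, 303 ± 20.4 in dox cells, 299 ± 20.2 in OHT+dox cells and 201 ± 14.4 in mock cells. Its pattern was that of Chac1 at a smaller size, with log2 fold changes against mock of 0.02 ± 0.15, 0.59 ± 0.14 and 0.57 ± 0.14. OHT+dox against OHT was 0.55 ± 0.14 (adjusted p = 0.00482, Wald test).

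Ddit4 encodes REDD1, which acts on mTORC1 through the TSC complex and also answers to hypoxia and glucocorticoids. It averaged 372 ± 25.4 in OHT cells, 218 ± 15.9 in dox cells, 263 ± 18.7 in OHT+dox cells and 312 ± 21.7 in mock cells. It was the gene of this set in which no neighbouring groups overlapped within their SE, OHT being highest and dox lowest. Its log2 fold changes against mock were 0.25 ± 0.14, −0.52 ± 0.15 and −0.25 ± 0.14. OHT+dox cells were lower than OHT cells by a log2 fold change of −0.50 ± 0.14 (adjusted p = 0.0139, Wald test), and OHT against dox was 0.77 ± 0.14 (adjusted p = 2.47e-06).

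Ppp1r15a encodes GADD34, the inducible subunit that directs a phosphatase to eIF2 and so ends the response. It averaged 538 ± 26.7 in OHT cells, 705 ± 34.0 in dox cells, 599.9 ± 29.4 in OHT+dox cells and 664 ± 32.2 in mock cells. Its order, dox, mock, OHT+dox, OHT, was that of Cebpb. The log2 fold changes against mock were −0.30 ± 0.10, 0.09 ± 0.10 and −0.15 ± 0.10, and OHT against dox was −0.39 ± 0.10 (adjusted p = 0.00127, Wald test). Its exons share 12 bases with Tulp2 on the opposite strand, which had a mean of 12.6.

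**Figure D2:**
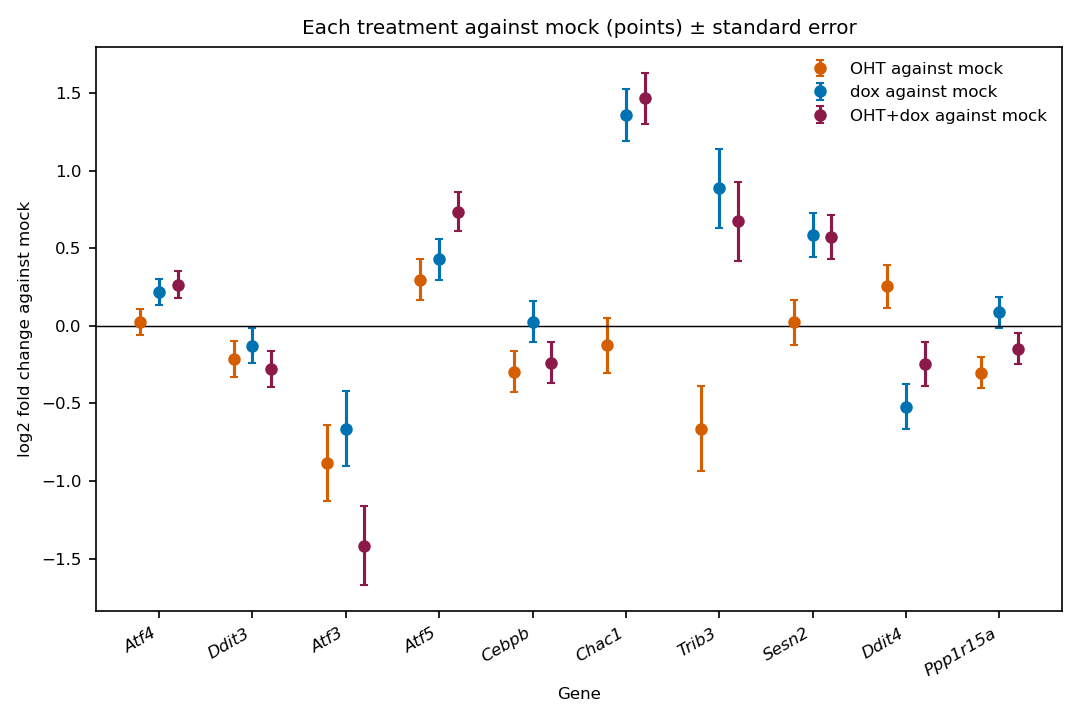
Log2 fold change against mock (y axis) of the 10 genes for OHT, dox and OHT+dox, with points for the estimates and error bars for the SE. Chac1, Trib3, Sesn2 and Atf5 lie above 0 with dox and with OHT+dox, and Atf3 lies below 0 with every treatment, at −1.42 with OHT+dox.

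As a description only, 0 of the 10 genes lay past the threshold above mock with OHT and 2 (Atf3 and Ppp1r15a) below it in the Wald test, where 12.7% of all genes tested lay above and 8.97% below. At an unadjusted p under 0.05 these were 1 and 4, beside 3951 of all 12259 genes higher or lower. With dox, 4 lay above (Chac1, Trib3, Sesn2 and Atf5) and 1 below (Ddit4), against 6.26% and 4.54% of all genes. With OHT+dox, 5 lay above, these 4 and Atf4, and 2 below, Atf3 and Ddit3, against 20.8% and 19.3%. Nothing is read from these counts, because the genes were chosen with these comparisons in view.

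The comparisons between treated groups were not named in the choice of the genes. They are differences of the fold changes against mock that were in view, so their p-values are not independent of it either. In OHT+dox against OHT, 4 genes were higher (Chac1, Trib3, Sesn2 and Atf5) and 1 lower (Ddit4), while 2.63% of all genes were higher and 2.16% lower. In OHT+dox against dox, 0 were higher and 1, Atf3, was lower, while 12.7% of all genes were higher and 9.05% lower. At an unadjusted p under 0.05 these were 1 and 3, beside 3934 of all 12259 genes higher or lower. In OHT against dox, 1 was higher (Ddit4) and 4 lower (Trib3, Chac1, Sesn2 and Ppp1r15a), against 8.69% and 7.56%. The values of OHT against dox were −1.55 ± 0.26 for Trib3, −1.48 ± 0.17 for Chac1 and −0.57 ± 0.14 for Sesn2. The median log2 fold change of the 10 genes was 0.20 in OHT+dox against OHT and −0.09 in OHT+dox against dox, against −0.00237 and −0.00194 over all genes tested.

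The effect of adding dox is given with and without OHT, in OHT+dox against OHT and in dox against mock. These share no library, but both are made of the values on which the genes were selected, so they stand side by side as a description. The log2 fold changes were 1.59 with OHT present and 1.36 without it for Chac1, and 1.34 and 0.88 for Trib3. For Sesn2 they were 0.55 and 0.59, for Atf5 0.44 and 0.43, for Ddit4 −0.50 and −0.52, and for Atf4 0.24 and 0.22. Adding OHT, in OHT+dox against dox and in OHT against mock, gave 0.11 and −0.13 for Chac1 and −0.02 and 0.02 for Sesn2, each within its SE of 0. Tested directly as an interaction, the difference between these effects passed for 0 of the 10 genes by the Wald test, and 0 had an unadjusted p under 0.05. Among all genes 0 passed in either direction (0%), with 130 at an unadjusted p under 0.05, and the spread of its z-values was 0.694 (standard deviation), so this test was a strict one. The other comparisons were built from the same group variances, so a miss there is not read as no change. The largest interaction of the set was that of Trib3, 0.45 ± 0.37 with a 95% interval of −0.27 to 1.17.

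**Figure D3:**
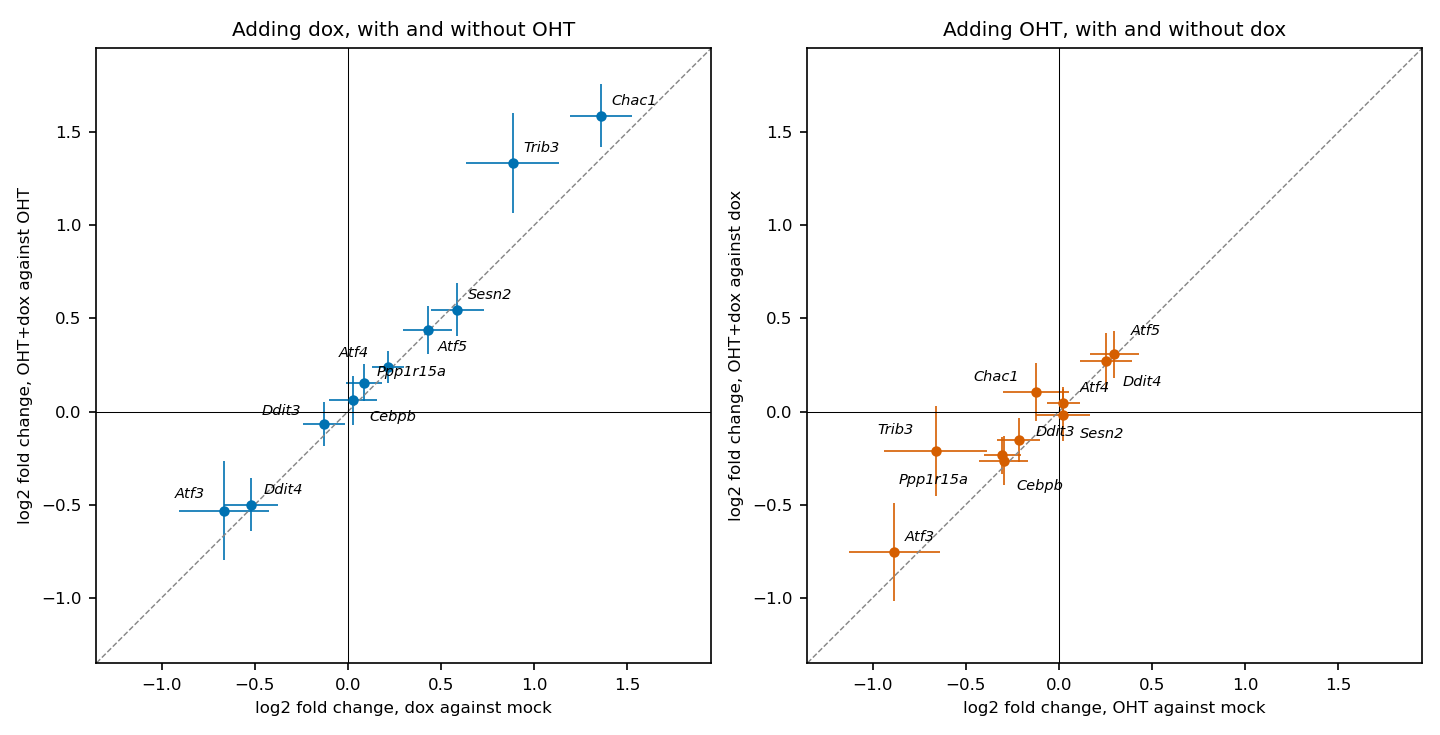
The log2 fold change from adding dox in OHT+dox against OHT (y axis) and in dox against mock (x axis), left, and from adding OHT in OHT+dox against dox (y axis) and in OHT against mock (x axis), right. Points are the 10 genes with SE bars and the dashed line marks equal values. Chac1 lies at 1.59 and 1.36 on the left, and at 0.11 and −0.13 on the right.

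Genes of like pattern were sought among 10502 genes with a mean normalized count of 50 or more, by the distance between their 3 log2 fold changes against mock. Nearest to Atf4 were Chordc1, Fam107b and Ppp1r15b, at distances of 0.02, 0.03 and 0.03 on the log2 scale, and 129 genes lay within 0.1. Ppp1r15b encodes CReP, the constitutive counterpart of GADD34. Nearest to Chac1, the gene with the widest range of fold changes, were Fam65b and Steap1, at 0.26 and 0.47, and 0 genes lay within 0.1. Steap1, which encodes a metalloreductase of the cell surface, was at −0.11 ± 0.24 with OHT, 1.13 ± 0.23 with dox and 1.05 ± 0.23 with OHT+dox, each on the log2 scale against mock. These distances rest on 4 groups that share their mock libraries.

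The rest of the pathway was followed in 8 lists with 108 genes, of which 99 were tested. The lists too were drawn up with these results known. Their counts stand beside the shares of all genes higher and lower, which were 12.7% and 8.97% with OHT, 6.26% and 4.54% with dox, 20.8% and 19.3% with OHT+dox, 2.63% and 2.16% in OHT+dox against OHT, 12.7% and 9.05% in OHT+dox against dox, and 8.69% and 7.56% in OHT against dox. These shares hold for the adjusted p. At an unadjusted p under 0.05 (Wald test), 3951 of all 12259 genes were higher or lower with OHT, 2785 with dox and 5813 with OHT+dox. Between treated groups these were 2001 in OHT+dox against OHT, 3934 in OHT+dox against dox and 3235 in OHT against dox.

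Upstream, Ppp1r15b, Eif2ak2 and Eif2ak3 were the kinases and phosphatase subunits of eIF2 that passed with OHT+dox. Of 12 genes, 0 were higher or lower with OHT (0 and 2 at an unadjusted p under 0.05), 1 was higher with dox, and 1 was higher and 2 were lower with OHT+dox. Ppp1r15b was the one that rose (0.26 ± 0.08 with OHT+dox). Eif2ak2, the double-stranded RNA sensor PKR, and Eif2ak3, the sensor PERK of the endoplasmic reticulum, fell with OHT+dox (−0.35 ± 0.11 and −0.26 ± 0.10). Between OHT+dox and OHT 0 of these genes passed by the Wald test, with 1 higher and 0 lower at an unadjusted p under 0.05. In OHT against dox 0 were higher (0 unadjusted) and 2 lower, Ppp1r15b (−0.23 ± 0.08) and Dnajc3, which encodes an inhibitor of these kinases (−0.27 ± 0.08), the second named after its value was seen.

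Subunits of eIF2 and of eIF2B, the exchange factor that phosphorylated eIF2 inhibits, rose in part. Of 8 genes, 5 rose with OHT, 3 with dox and 6 with OHT+dox, so 3, 5 and 2 did not pass, and 0 fell in any of these (also 0 at an unadjusted p under 0.05, Wald test). Eif2b2 was at −0.08 with OHT and Eif2b4 at −0.08 with dox, neither of which passed, and both are named after their values were seen. Eif2b3 reached 1.38 ± 0.17 and Eif2s1, the subunit that is phosphorylated, 0.90 ± 0.09 with OHT+dox. Both were also higher with OHT+dox than with OHT (0.53 ± 0.17 and 0.36 ± 0.09) and than with dox (0.52 ± 0.17 and 0.38 ± 0.09), and passed in all of these.

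The next list holds genes known as ATF4 targets for amino acid synthesis and one-carbon metabolism. Of 14 genes tested, 7 rose with OHT, 10 with dox and 12 with OHT+dox, and 0 fell (1, 0 and 1 at an unadjusted p under 0.05). The 7 that did not pass with OHT were Phgdh, Aldh1l2, Aldh18a1, Pycr1, Gpt2, Got1 and Pck2, with log2 fold changes of −0.25 to 0.24. Asns, asparagine synthetase and a textbook CARE gene, averaged 670.8 in OHT cells, 759.8 in dox cells, 1035 in OHT+dox cells and 342.4 in mock cells. OHT+dox cells stood above both single treatments, with log2 fold changes of 0.63 ± 0.12 over OHT (adjusted p = 1.55e-05, Wald test) and 0.45 ± 0.12 over dox (adjusted p = 0.00139). With OHT alone, Asns was at 0.97 ± 0.12 over mock, where Chac1 was at −0.13 ± 0.18.

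The mitochondrial folate enzymes Mthfd2 and Mthfd1l lay on opposite sides in OHT against dox. Mthfd2 averaged 410.1 in OHT cells, 662.6 in dox cells, 902.1 in OHT+dox cells and 237.9 in mock cells, and was lower with OHT than with dox (−0.69 ± 0.12, adjusted p = 2.98e-07, Wald test). Mthfd1l averaged 734.6 in OHT cells, 377.6 in dox cells, 967.9 in OHT+dox cells and 197.8 in mock cells, and was higher with OHT than with dox (0.96 ± 0.13, adjusted p = 5.26e-12). In the direct comparisons of the list, 8 genes were higher with OHT+dox than with OHT and 0 lower (0 at an unadjusted p under 0.05), and 7 were higher and 1 lower than with dox. The 1 lower with OHT+dox than with dox was Pck2, the mitochondrial PEP carboxykinase, named after its value was seen (−0.30). In OHT against dox 2 were higher and 4 lower.

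The amino acid transporter genes that rose included that of the light chain of a leucine transporter and that of an arginine transporter. Of 9 genes, 4 rose with OHT, 5 with dox and 5 with OHT+dox, and 0 fell (0 at an unadjusted p under 0.05 in each, Wald test). Slc7a5, the light chain of the leucine transporter LAT1, averaged 1053 in OHT cells, 1276 in dox cells, 1651 in OHT+dox cells and 651.5 in mock cells. Its log2 fold change was 0.65 ± 0.10 in OHT+dox against OHT and 0.37 ± 0.10 in OHT+dox against dox, and both passed. Slc7a1, the arginine transporter CAT1, had 0.49 ± 0.10 and 0.44 ± 0.10, which passed too. Slc7a11, the cystine transporter that feeds the synthesis of glutathione, averaged 132.2 in OHT cells and 205 in dox cells, a log2 fold change of −0.63 that passed, and it was named after its value was seen. In OHT against dox 1 of the 9 was higher and 2 were lower. Slc3a2 of the same list, also named after its values were seen, did not pass against mock. It was at −0.05 with OHT, −0.02 with dox and 0.02 with OHT+dox.

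Nearly every tRNA synthetase of the list rose with dox. Of its 13 genes, with the tRNA exporter Xpot included, 6 rose with OHT, 12 with dox and 13 with OHT+dox, and 0 fell (0 at an unadjusted p under 0.05 in each, Wald test). Their median log2 fold changes against mock were 0.15, 0.41 and 0.57. Iars and Gars, the isoleucyl and glycyl enzymes, were highest with OHT+dox at 0.72 ± 0.08 and 0.67 ± 0.10. In OHT+dox against OHT 9 were higher and 0 lower, in OHT+dox against dox 1 was higher, and 7 were lower with OHT than with dox and 0 higher (0 at an unadjusted p under 0.05). Cars, the cysteinyl enzyme, named after its values were seen, was below mock with OHT, at −0.16, which did not pass. It averaged 459.2 in OHT cells, 755.2 in dox cells, 715.2 in OHT+dox cells and 513.7 in mock cells.

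**Figure D4:**
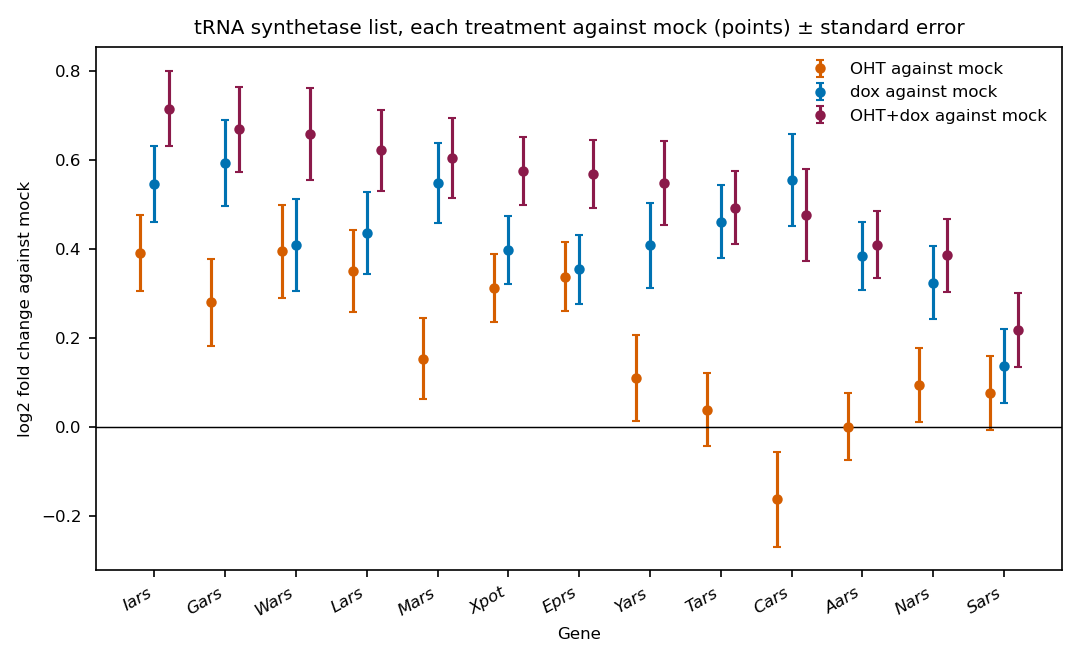
Log2 fold change against mock (y axis) of the 13 genes of the tRNA synthetase list for OHT, dox and OHT+dox, ordered by the value with OHT+dox, with SE bars. The points with OHT+dox run from 0.22 for Sars to 0.72 for Iars, and Cars lies at −0.16 with OHT against 0.56 with dox.

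Other targets of ATF4 and CHOP were mixed. Of 13 genes tested, 2 rose and 2 fell with OHT, 5 rose and 1 fell with dox, and 5 rose and 2 fell with OHT+dox. In OHT against dox 1 was higher and 5 were lower. Stc2, a secreted glycoprotein, and Eif4ebp1, a repressor of cap-dependent translation, reached 1.14 ± 0.17 and 0.75 ± 0.11 with OHT+dox. Vldlr, a lipoprotein receptor, and Gadd45a, a gene of growth arrest and DNA damage, fell (−0.66 ± 0.09 and −0.35 ± 0.11). Fgf21, Gdf15, Adm2 and Pmaip1, also known targets, were too low to be tested, with means of at most 1.33 normalized counts.

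The ATF6 and XBP1 arm of the unfolded protein response, which runs in parallel to the eIF2 kinase PERK, had 6 of its 18 genes lower with OHT than with dox and 0 higher (1 at an unadjusted p under 0.05, Wald test). The 6 were Creld2, Xbp1, Edem1, Dnajb11, Manf and Atf6. Xbp1 and Atf6, the factors of this arm, were at −0.42 ± 0.09 and −0.28 ± 0.08, and Creld2, a chaperone of the endoplasmic reticulum, was at −0.46 ± 0.12, all named after their values were seen. Against mock, 2 rose and 1 fell with OHT, 2 rose and 0 fell with dox (0 at an unadjusted p under 0.05), and 3 rose and 2 fell with OHT+dox. Hspa5, the chaperone BiP and the usual gauge of endoplasmic reticulum stress, averaged 3068 in OHT cells, 3386 in dox cells, 3307 in OHT+dox cells and 3140 in mock cells. Its log2 fold change with OHT+dox was 0.07 ± 0.08 and did not pass. The chaperone partners Sdf2l1 and Hyou1 rose with OHT+dox (0.49 ± 0.16 and 0.33 ± 0.08). Edem1 and Sel1l, of the degradation of misfolded proteins, fell (−0.29 ± 0.11 and −0.18 ± 0.08). Between OHT+dox and OHT 0 of the 18 passed in the Wald test (1 higher and 0 lower at an unadjusted p under 0.05), and in OHT+dox against dox 0 were higher (1 unadjusted) and 3 lower.

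Relatives of the 10 genes did not move as one. Of 12 tested, 2 rose and 3 fell with OHT, 2 rose and 3 fell with dox, and 3 rose and 3 fell with OHT+dox. In OHT against dox 4 were higher and 2 lower. Sesn3, a sestrin like Sesn2, averaged 737.3 in OHT cells, 584.9 in dox cells, 499.2 in OHT+dox cells and 791.4 in mock cells, the reverse of Sesn2 with dox. Trib2, a pseudokinase like Trib3, averaged 804.7, 620.9, 525.7 and 966.2 in the same groups. In OHT+dox against OHT, Sesn3 fell by 0.56 ± 0.11 on the log2 scale (adjusted p = 7.69e-05, Wald test) and Trib2 fell by 0.61 ± 0.10 (adjusted p = 1.77e-07). In that comparison 2 of the 12 were higher and 3 lower. Trib1 and Cebpd, named after their values were seen, rose with dox (0.28 ± 0.10 and 0.58 ± 0.11). Both were also higher with OHT+dox than with OHT (0.34 ± 0.10 and 0.68 ± 0.11), and passed in each of these. Cebpz and Atf6b rose with OHT+dox (0.63 ± 0.09 and 0.56 ± 0.09). Cebpz is counted in this list by its symbol, but it does not encode a C/EBP factor and is no relative of Cebpb.

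Over the 4 lists of ATF4 and CHOP targets together, 49 of 54 genes were tested. With OHT 19 rose and 2 fell, with dox 32 and 1, and with OHT+dox 35 and 2. In OHT+dox against OHT 25 were higher and 0 lower (34 and 1 at an unadjusted p under 0.05, Wald test), while in OHT+dox against dox 14 were higher and 2 lower, and in OHT against dox 4 and 18. Their median log2 fold change was 0.31 over OHT and 0.14 over dox. The interaction passed in 0 of them, with 1 above and 8 below 0 at an unadjusted p under 0.05.

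**Figure D5:**
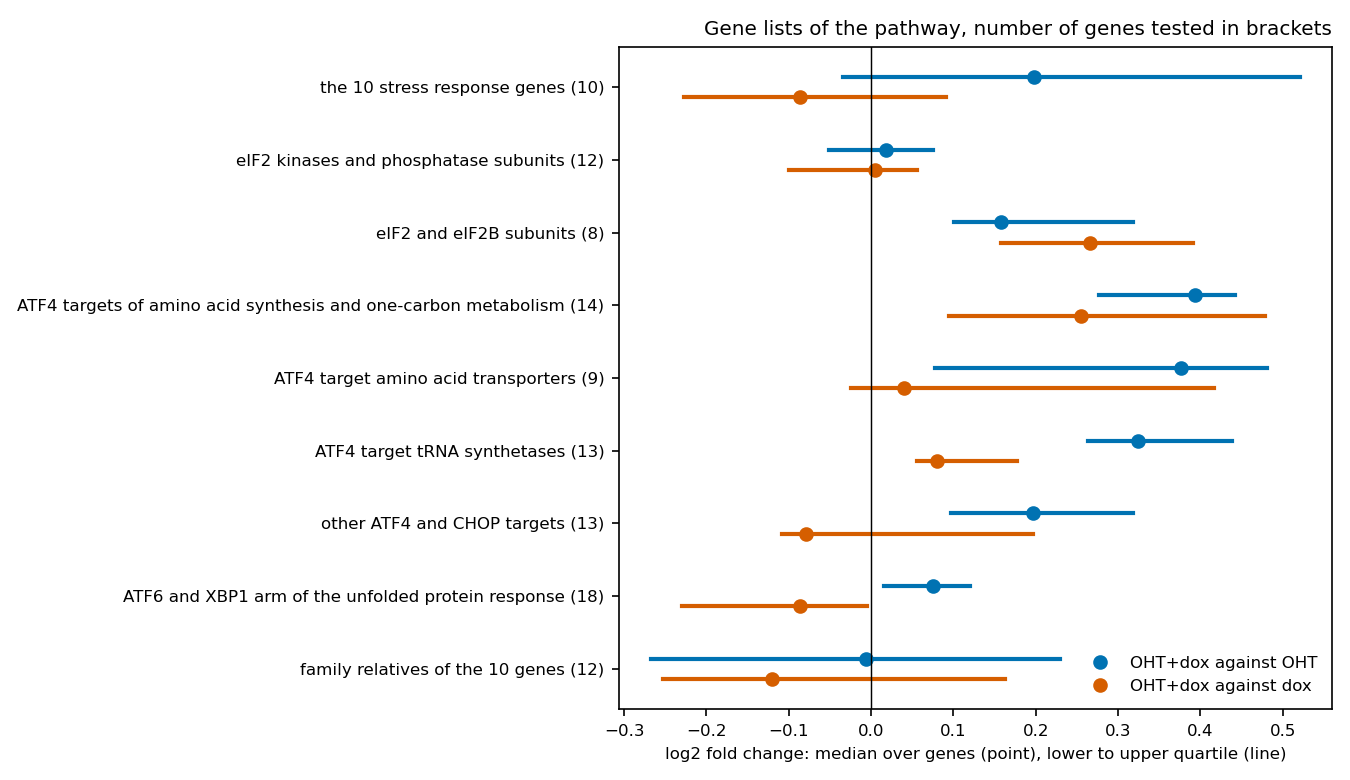
Median log2 fold change over the genes of each list (points, x axis), with the quartiles joined by a line, for OHT+dox against OHT and OHT+dox against dox. The median of the tRNA synthetase list is 0.32 over OHT and 0.08 over dox, and that of the eIF2 kinases and phosphatase subunits is 0.02 and 0.01.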

How the data were processed

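RNA from 12 libraries was sequenced in the study, and 1 table of the whole series was used. The submitters' processing notes name TopHat2 2.0.8, SAMtools, featureCounts 1.4.5-p1, DESeq2 and the mm9 build as what the authors used. A gene annotation and the DESeq2 version were not given in the sources used here. Libraries were made from total RNA without poly(A) selection and without strand. The deposited mean signal is the authors' mean of size-factor-normalized counts over the 6 libraries of a comparison with mock. The authors' log2 fold change is shrunken toward 0, the deposited p-value is adjusted by the authors within a comparison, and a Y or N call stands beside them. These columns hold the authors' own comparisons and served only as input, and none of their values is printed.

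The adjustment of the p-values was undone, and each fold divided by its z-value gave a standard error. Its peak gave the prior standard deviation (0.45, 0.34 and 0.62 on the log2 scale for OHT, dox and OHT+dox), with which the shrinkage was undone. Each comparison was then split into a treated and a mock mean, mock means were averaged over the 3 comparisons after aligning their scales (by 0.0306 for OHT and 0.00189 for dox, log2), and 1 dispersion per gene was averaged over them. Where a standard error left a choice, the values that brought the mock means closest together were taken. Mock means of separate comparisons differed by a median of 0.0004 on the log2 scale, which is therefore partly built in. Groups and the interaction were compared for 12259 genes by two-sided Wald tests with Benjamini-Hochberg adjustment (Python 3.11.15, numpy 2.4.6, pandas 2.3.3, SciPy 1.17.1).

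The 10 genes and all lists were chosen with earlier results of these data known. Besides these 10, the text names of each list the 2 genes that rose most and the 2 that fell most with OHT+dox among those passing, Asns, Hspa5 and Eif2ak3 always, and the 3 genes of most like pattern to Atf4 and to the gene of widest range. Others are said to be named after their values were seen. A gene that this rule names is not reported here. Gene overlaps come from GENCODE and promoters from RefSeq, both on GRCm38, and no coordinate was converted. Alternatives were each comparison's own standard error, groups scaled to equal sums, a prior 10% larger, the mock mean of 1 comparison, a log2 fold minimum of 0.5, a mean count of 10 or more, and the mean signal alone.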

Additional observations from a re-analysis of the deposited data

How the results depend on the processing

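No paired analysis was possible because the table holds no value per library, and for the same reason leaving out single libraries was not run and a library that decides a value cannot be seen. The values of the 10 genes against mock are a description, also here. The signs of all log2 fold changes of the 10 genes were kept in the alternatives run. With a prior 10% larger they moved by at most 0.08, Trib3 lay past the threshold with OHT (−0.71), and 1 gene in all was above 0 in the interaction. With each comparison's own standard error, 2 of the 10 genes were lower with dox, and Atf4 (0.22) and Atf3 (−0.66) lay past the threshold with dox. With groups scaled to equal sums, which shifts them by at most 0.02, 2 were lower with dox, and Atf3 lay past it (−0.68). With a log2 fold minimum of 0.5, 1 of the 10 genes was lower with OHT and 1 with OHT+dox. Pathway genes higher and lower were then 15 and 1 with OHT, 22 and 1 with dox, 31 and 4 with OHT+dox, 9 higher in OHT+dox against OHT, 5 and 0 in OHT+dox against dox, and 3 and 7 in OHT against dox. Counts over all genes under that minimum were 780 and 368 with OHT, 298 and 191 with dox, 1334 and 1202 with OHT+dox, 126 and 110 in OHT+dox against OHT, 692 and 441 in OHT+dox against dox, and 523 and 382 in OHT against dox. The mean signal alone gave the differences between treated groups again, since the group means are built to return it. Counts of all genes and of pathway genes moved by less than 1.5 times in the other alternatives run.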
